A study of Oryza sativa with 4 samples.

Results

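In leaf RNA of rice, 6 genes of chlorophyll metabolism and leaf senescence were followed: 4 of chlorophyll synthesis (GluTR, CHLH, PORA and LYL1), RCCR1 of chlorophyll breakdown, and OSL2, a gene linked to leaf senescence. They were found by symbol or synonym in the rice gene table and are 6 of 17905 genes to which at least 1 probe set is singly assigned. Together they have 7 probe sets, 2 of them for CHLH, and all 7 read above background on all 4 arrays and passed the filter on low values. The genes were chosen with their differences between these arrays already known, so their values are given as a description, with no test. The study measured transcripts in leaves of Oryza sativa cultivar Nipponbare on single-colour arrays, with 2 arrays for the empty vector control and 2 for the OsRR6 overexpressor, as labelled. Control plants carried the vector pActnos/Hmz and overexpressor plants carried pActnos/Hmz-OsRR6, the latter adding a type-A response regulator, one of the proteins that dampen signalling by the hormone cytokinin. Plants of both groups were T0 lines regenerated from callus, selected on hygromycin-B and grown in hydroponics to heading in days of 12 h light (30 °C) and 12 h dark (25 °C), and leaves were taken 75 days after germination. The labels do not say whether replicates are separate plants or lines, so p-values rest on a spread between arrays that may be technical.

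Chlorophyll is built in the plastid from glutamate, through the tetrapyrrole ring that it shares with haem. Glutamyl-tRNA reductase feeds the pathway, magnesium chelatase commits the ring to chlorophyll, a light-dependent reductase forms chlorophyllide, and a phytyl tail made from geranylgeranyl diphosphate is attached at the end. In ageing leaves the pigment is taken apart by a separate set of enzymes, and its ring is opened and reduced before export to the vacuole. Cytokinin is known to promote greening and to delay the loss of chlorophyll.

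At the probe set of OsRR6 itself (RR6, LOC4337372) the signal was not raised in the overexpressor pair, so each direction below is that of the libraries as labelled. It read 2558.7 and 2733.2 in the control pair, against 2264.2 and 1989.4 on the overexpressor arrays. The log2 change was -0.32 (95% interval -0.56 to -0.07, limma adjusted p = 0.0597). The sources used here do not place that probe set relative to the transgene. Leaf transcripts were bright on all arrays, with the light-harvesting gene CAB2R between 24693.6 and 31534.7. The Rubisco small subunit gene RBCS read between 19817.5 and 23840.0, while the RBCS1 probe set lay below background throughout. CAB2R and RBCS did not pass (limma adjusted p = 0.0526 and 0.0888), whereas 4 other leaf genes fell, as given below. On the log2 scale the arrays of a pair correlated at 0.988 (control) and 0.975 (overexpressor) across 28629 tested probe sets. The median log2 change of these was 0.08, and scaling to 27 hybridisation spikes moved it to 0.39. In limma 28.5% of them passed an adjusted p of 0.05, 15.4% as higher (4410) and 13.1% as lower (3760), a split that became 3030 and 4631 after median centring and 11533 and 2115 after spike scaling. A difference of at least 2-fold in all 4 pairs of a control and an overexpressor array was reached by 2.22% as higher and 3.45% as lower. The array controls of RNA integrity gave log2 ratios of 3' to 5' signal of 3.01 to 3.36 for actin, 1.67 to 1.86 for GAPDH, 0.78 to 1.27 for cyclophilin and -0.59 to -0.50 for ubiquitin.

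All 4 synthesis genes read lower on both overexpressor arrays than on both control arrays, and RCCR1 and OSL2 read higher. Among all tested probe sets 28.3% were lower and 39.7% higher without overlap between the groups, so a lack of overlap was common, and since these genes were chosen on this contrast nothing is read from their count. In leaf RNA, fewer cells of a type and less RNA per cell cannot be told apart. PORA had the largest decrease of the 6 and RCCR1 the largest increase. In the plot of signal by array, the overexpressor arrays lie close together for PORA, CHLH and LYL1 and wide apart for RCCR1.

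**Figure D1:**
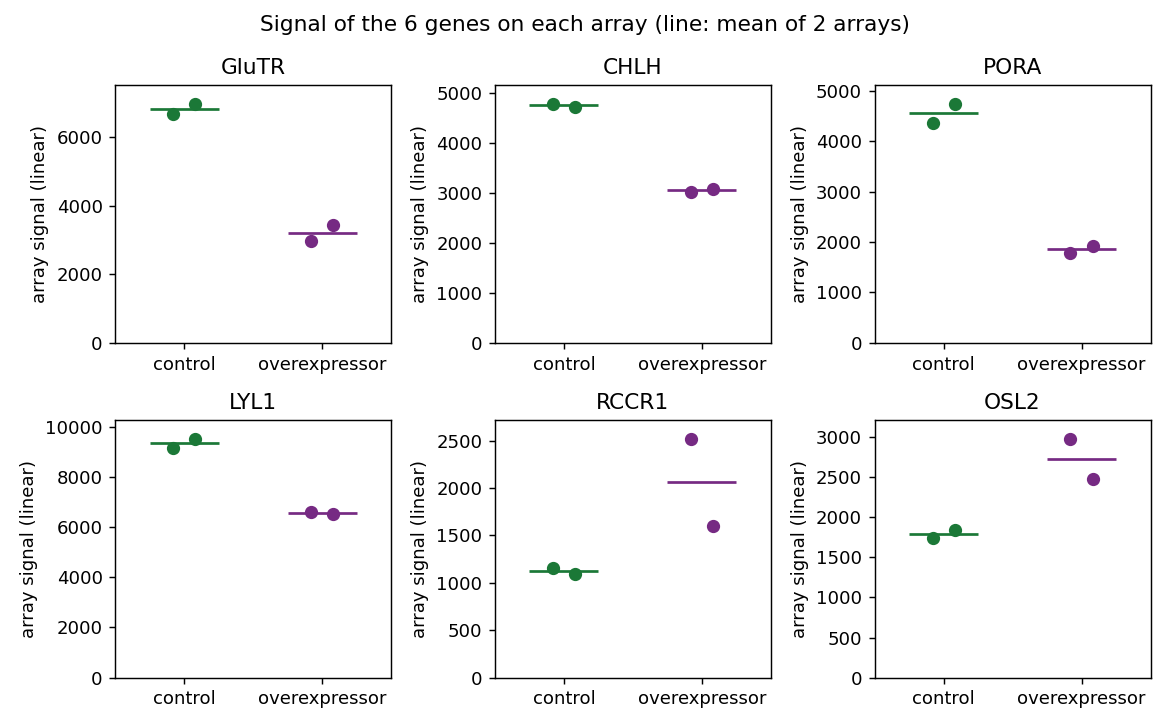
Array signal on a linear axis from 0 for the brightest probe set of each of the 6 genes, with a point for each array and a line at the mean of 2 arrays. GluTR, CHLH, PORA and LYL1 lie lower on both overexpressor arrays than on both control arrays, and RCCR1 and OSL2 lie higher.

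GluTR (LOC4349044) encodes glutamyl-tRNA reductase, the enzyme that makes the precursor of 5-aminolevulinic acid and the main point of control of the pathway. Its signal was 6659.8 and 6963.3 in the control pair, against 2978.2 and 3423.5 on the overexpressor arrays. Both overexpressor arrays lay far below both control arrays, with means of 6812 ± 215 and 3201 ± 315 (SD, n = 2 each). The log2 difference was -1.09 (SE 0.09, 95% interval -1.32 to -0.86), which is 2.13-fold lower, and it ranged from -1.22 to -0.96 over the 4 pairs of a control and an overexpressor array.

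CHLH (LOC4332690) encodes the large subunit of magnesium chelatase, which binds the porphyrin. Its bright probe set read 4785.9 and 4728.5 in the control pair, against 3027.9 and 3092.7 on the overexpressor arrays. The arrays of each pair were almost equal and the groups were well apart (means 4757 ± 40.6 and 3060.3 ± 45.8, SD, n = 2 each). The log2 difference was -0.64 (SE 0.08, 95% interval -0.82 to -0.45), or 1.55-fold lower. A second, dim CHLH probe set did not follow it. It read 148.4 and 95.5 in the control pair, against 127.5 and 234.1 on the overexpressor arrays, with overlapping groups and a log2 difference of 0.52 (95% interval -0.36 to 1.41). The name of this second probe set marks it as one that can also hybridise to other transcripts.

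PORA (LOC4337415) encodes a protochlorophyllide oxidoreductase, the enzyme that needs light to form chlorophyllide, which in barley and Arabidopsis is best known from greening seedlings. The signal was 4359.1 and 4733.5 in the control pair, against 1790.9 and 1928.7 on the overexpressor arrays. Every overexpressor value was under every control value by a wide margin, with means of 4546 ± 265 and 1859.8 ± 97.4 (SD, n = 2 each). The log2 difference was -1.29 (SE 0.09, 95% interval -1.51 to -1.07), or 2.44-fold lower, and ranged from -1.40 to -1.17 over the 4 pairs. Of the 28629 tested probe sets, 3.24% had a change as low as or lower than that of PORA, against 4.61% for GluTR, 10.8% for CHLH and 14.4% for LYL1.

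LYL1 (LOC4330711, also CHLP) encodes geranylgeranyl reductase, which makes the phytyl tail of chlorophyll and of tocopherol. The signal was 9150.1 and 9514.6 in the control pair, against 6613.4 and 6533.9 on the overexpressor arrays. The groups did not overlap, and the difference was the smallest of the 4 synthesis genes. Its log2 size was -0.51 (SE 0.07, 95% interval -0.68 to -0.33), or 1.42-fold lower, from means of 9332 ± 258 and 6574 ± 56.2 (SD, n = 2 each). After scaling to the spikes the log2 differences of LYL1 and CHLH were -0.19 and -0.32, to be read against the median of 0.39 for all tested probe sets under that scaling.

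RCCR1 (LOC4348519) encodes red chlorophyll catabolite reductase, which acts on the opened ring. The signal was 1158.6 and 1092.4 in the control pair, against 2518.4 and 1601.6 on the overexpressor arrays. Both overexpressor arrays were above both control arrays, but they differed widely from each other (means 1125.5 ± 46.8 and 2060.0 ± 648, SD, n = 2 each). The log2 difference was 0.83 (SE 0.20, 95% interval 0.34 to 1.33), or 1.78-fold higher, and it was 0.51 without overexpressor replicate 1 and 1.16 without overexpressor replicate 2.

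OSL2 (LOC4336983) encodes a transaminase of the GABA shunt whose transcript is known from senescing rice leaves, and the enzyme is not one of chlorophyll breakdown itself. The signal was 1740.9 and 1842.2 in the control pair, against 2975.5 and 2468.6 on the overexpressor arrays. As for RCCR1, overexpressor replicate 1 was the higher of its pair, and the groups did not overlap (means 1792 ± 71.6 and 2722 ± 358, SD, n = 2 each). The log2 difference was 0.60 (SE 0.11, 95% interval 0.32 to 0.87), or 1.51-fold higher, and 0.91 after spike scaling. The only other gene of the GABA shunt with a matching symbol was SSADH1, the succinate semialdehyde dehydrogenase that takes up the product. Its log2 difference was 0.10 (95% interval -0.14 to 0.33, limma adjusted p = 0.498).

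Around these genes the synthesis pathway was lower at some steps and not past the test at others. Of 9 other synthesis genes with a probe set 4 fell, 0 rose and 5 did not pass in limma (adjusted p of 0.05 over all probe sets), against 15.2% of all 15852 tested genes that fell and 18.8% that rose. This count describes the list and is not a test of it. The median log2 difference of the 9 genes was 0.14, beside 0.08 for all tested probe sets. The genes that fell were CAO, CHLI, HEMB and PORB.

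CAO, the oxygenase that turns chlorophyll a into chlorophyll b, had the largest of these changes. It read 2772.0 and 2466.8 in the control pair, against 1204.8 and 1191.2 on the overexpressor arrays. The groups were well apart, with a log2 difference of -1.12 (SE 0.10, limma adjusted p = 0.000917). CHLI, the ATPase subunit of magnesium chelatase, was dim and fell from 286.7 and 285.3 to 130.8 and 182.5 (-0.87, SE 0.22, limma adjusted p = 0.0307). HEMB, the 5-aminolevulinic acid dehydratase gene, fell from 2088.5 and 2232.6 to 1326.4 and 1564.5 (-0.58, SE 0.11, limma adjusted p = 0.0124). PORB, the second protochlorophyllide oxidoreductase gene, fell from 8292.4 and 8680.3 to 6649.4 and 6169.2 (-0.41, SE 0.08, limma adjusted p = 0.0125). The names of the PORB and HEMB probe sets mark them as ones that may also hybridise to other transcripts, and that of CAO marks several transcripts of a gene, so 1 of the 4 calls, that of CHLI, is left without marked probe sets. HEMB, CHLI and PORB lost the call without either control array, without a trend of the spread and after spike scaling, and CHLI also without a filter (adjusted p from 0.0516 to 0.504 in limma), whereas CAO kept it in each of the 14 alternatives in which its probe set was tested.

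The 5 genes that did not pass had positive differences. GSA, which encodes the aminotransferase acting directly after GluTR, read 6079.2 and 6434.9 in the control pair, against 7193.3 and 7842.6 on the overexpressor arrays (0.26, 95% interval 0.07 to 0.46, limma adjusted p = 0.056). The groups of GSA did not overlap, and it passed as higher after quantile normalization, cyclic loess and spike scaling, with a filter at the 75th percentile, and without overexpressor replicate 1 (limma adjusted p from 0.00417 to 0.0458). A second, dim GSA probe set had a log2 difference of -0.69. CHLD, a further subunit of magnesium chelatase, had a log2 difference of 0.22 (limma adjusted p = 0.256) and CHLG, the chlorophyll synthase, one of 0.17 (limma adjusted p = 0.365). PPOX1, the protoporphyrinogen oxidase, stood at 0.26 (limma adjusted p = 0.262) and HEMD, the uroporphyrinogen synthase, at 0.14 (limma adjusted p = 0.641). CHLD, CHLG and PPOX1 passed as higher after spike scaling and without overexpressor replicate 1 (limma adjusted p from 0.004 to 0.02). The signs of HEMD and CHLG turned negative without overexpressor replicate 2. HEMC and DVR had no probe set of their own, and entries such as GUN4, CHLM and CRD1 had no matching symbol and were not analysed here.

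**Figure D2:**
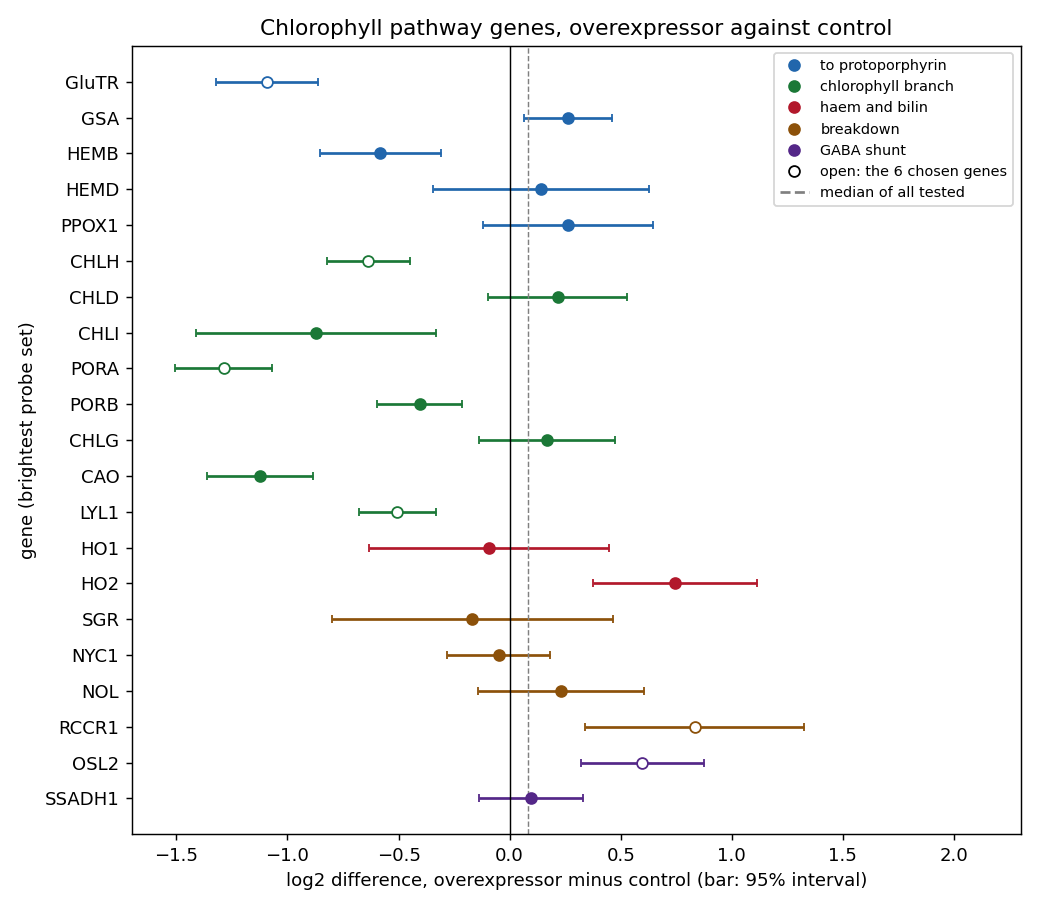
Log2 difference, overexpressor minus control, of the brightest probe set of each gene, with its 95% interval from the limma fit and colours for the step of the pathway. Open symbols are the 6 chosen genes, and the dashed line is the median of all tested probe sets (0.08). Of the filled symbols, CHLI, PORB, CAO and HEMB fell and HO2 rose in the test over all probe sets, and the others did not pass, GSA included. The open symbols of GluTR, CHLH, PORA and LYL1 lie below 0 and those of RCCR1 and OSL2 above it, shown as a description.

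Because a ratio of 2 genes on the same array does not depend on how arrays are scaled, neighbouring steps were also set against each other within arrays. The 10 pairs were chosen after the values had been seen and include the 6 genes, so they are descriptions with no test. Relative to GSA, GluTR was lower by a log2 ratio change of -1.36, with -1.39 and -1.32 on the overexpressor arrays against -0.01 to 0.01 around the mean of the control arrays. PORA changed by -0.88 relative to PORB (-0.99 and -0.77 on the overexpressor arrays). CHLH changed by -0.85 relative to CHLD (-0.69 and -1.02), but by 0.24 relative to CHLI (0.46 and 0.02). PORA and CAO changed by similar amounts, with a ratio change of -0.16 that ranged from -0.37 to 0.04 over the 4 pairs of arrays.

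**Figure D3:**
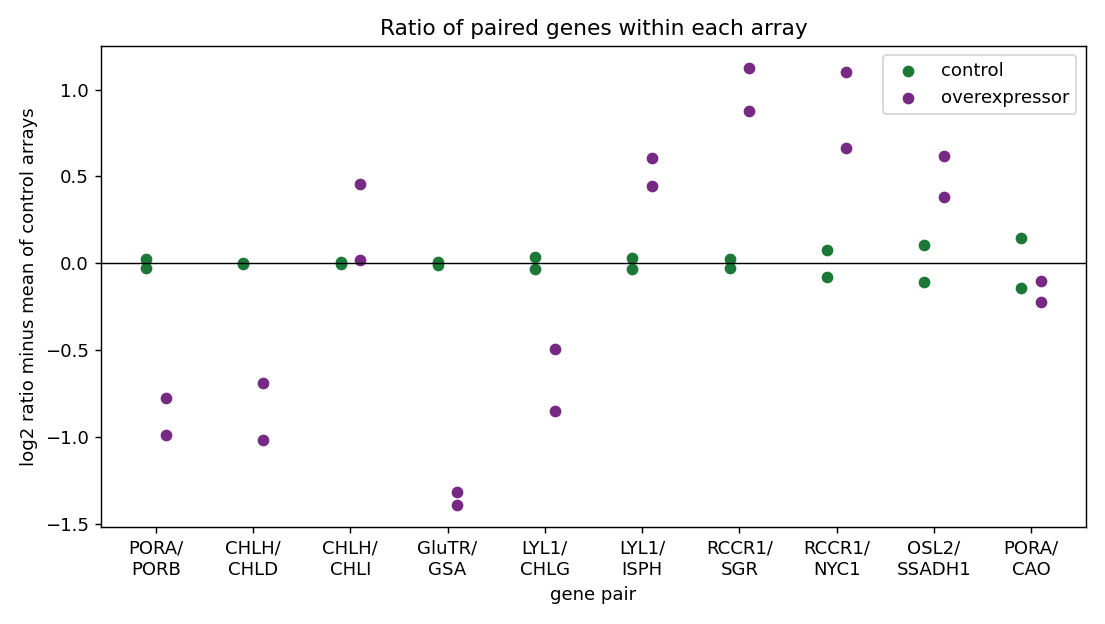
Log2 ratio of the first to the second gene of each pair on each array, less the mean of the control arrays, with a point for each array. The ratios of GluTR to GSA, PORA to PORB, CHLH to CHLD and LYL1 to CHLG lie below 0 on both overexpressor arrays, and those of RCCR1 to SGR and to NYC1 lie above it.

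Chlorophyll breakdown could be followed at few other steps. Of 3 other breakdown genes measured 0 rose, 0 fell and 3 did not pass in limma at an adjusted p of 0.05, with none at an unadjusted p of 0.05. PPH, PAO, RCCR2, CLH1 and HCAR had no matching symbol and were not analysed here. SGR, the stay-green gene that starts the loss of magnesium from chlorophyll, read 4036.3 and 3942.9 in the control pair, against 4850.6 and 2598.9 on the overexpressor arrays. Its overexpressor values lay on either side of the controls (log2 difference -0.17, 95% interval -0.80 to 0.46, limma adjusted p = 0.67). NYC1 and NOL, which encode the reductases that turn chlorophyll b back towards chlorophyll a, had log2 differences of -0.05 (limma adjusted p = 0.736) and 0.23 (limma adjusted p = 0.31). NOL passed as higher after spike scaling (0.54, limma adjusted p = 0.0286) and without overexpressor replicate 2 (0.45, limma adjusted p = 0.0055), and stood at 0.01 without overexpressor replicate 1. Within arrays, RCCR1 was higher relative to SGR by a log2 ratio of 0.88 and 1.13 on the overexpressor arrays, and relative to NYC1 by 1.10 and 0.67. SGR and RCCR1 were both higher on overexpressor replicate 1 than on replicate 2. The same held for HO1, a haem oxygenase gene on the way to the bilin of phytochrome (5215.6 and 3100.8, against 4113.6 and 4475.3 on the control arrays). HO1 did not pass (-0.09, limma adjusted p = 0.789), and its sign differed between the fits without overexpressor replicate 1 (-0.47) and without replicate 2 (0.28), as did that of SGR (-0.62 and 0.28). Each of these 4 values passed in its own fit (limma adjusted p from 0.000402 to 0.0226). HO2, the second haem oxygenase gene, rose from 629.6 and 566.9 to 888.1 and 1135.0 (0.75, SE 0.15, limma adjusted p = 0.0148), a call that was lost without either control array and without a trend of the spread (adjusted p from 0.0536 to 0.0994).

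LYL1 draws on geranylgeranyl diphosphate, which the plastid also turns into carotenoids, and genes of that supply and of carotenoid synthesis were lower on the overexpressor arrays. Of 11 plastid isoprenoid genes 7 fell, 0 rose and 4 did not pass in limma, with a median log2 difference of -1.03, where 15.2% of all tested genes fell. Under all 16 alternatives between 6 and 8 of the 11 were lower. Of 5 genes of the supply pathway 4 fell, and of 5 carotenoid genes 3 fell.

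In the supply pathway, DXR, which makes its committed intermediate, read 5552.6 and 5677.3 in the control pair, against 2355.6 and 2539.8 on the overexpressor arrays (-1.20, SE 0.08, limma adjusted p = 0.000482). ISPG, the enzyme before the last step, read 8307.6 and 8363.8 against 3766.5 and 3590.0 (-1.18, SE 0.08, limma adjusted p = 0.000405). ISPH, the last enzyme, read 12657.8 and 12574.0 against 6557.3 and 5801.0 (-1.03, SE 0.09, limma adjusted p = 0.000733). These 3 genes stood apart without overlap, and each kept its call in its 15 alternatives. MCS fell by 0.51 on the log2 scale (limma adjusted p = 0.0198), a call lost in 4 of 15 alternatives, and ISPE did not pass (-0.04, limma adjusted p = 0.891). Within arrays, LYL1 was higher relative to ISPH by a log2 ratio of 0.45 and 0.61 on the overexpressor arrays, so the decrease of LYL1 was smaller than that of ISPH.

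Phytoene synthase opens the carotenoid pathway, and of its genes PSY2 and PSY3 fell in limma. PSY3 read 3138.6 and 3359.7 in the control pair, against 658.7 and 810.4 on the overexpressor arrays (-2.15, SE 0.13, limma adjusted p = 0.000335). PSY2 read 1027.9 and 1169.3 against 303.8 and 325.5 (-1.79, SE 0.13, limma adjusted p = 0.000558). PSY1 read 3010.7 and 3180.0 against 2767.1 and 2556.8 and did not pass (-0.22, limma adjusted p = 0.115), and whether it differed from the other phytoene synthase genes was not tested. ZEP, a zeaxanthin epoxidase gene on the way to abscisic acid, fell by 1.18 (SE 0.08, limma adjusted p = 0.000485). The desaturase gene PDS (-0.13, limma adjusted p = 0.329) and HPT1 of tocopherol synthesis, which uses the phytyl tail made by LYL1 (-0.22, limma adjusted p = 0.14), did not pass. The signs of ISPE, PSY1, PDS and HPT1 turned positive after spike scaling. In the other direction, PSY1 passed as lower after median centring (-0.32, limma adjusted p = 0.0355). The dimmer HPT1 probe sets had log2 differences from -0.26 to 0.34 and did not pass.

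**Figure D4:**
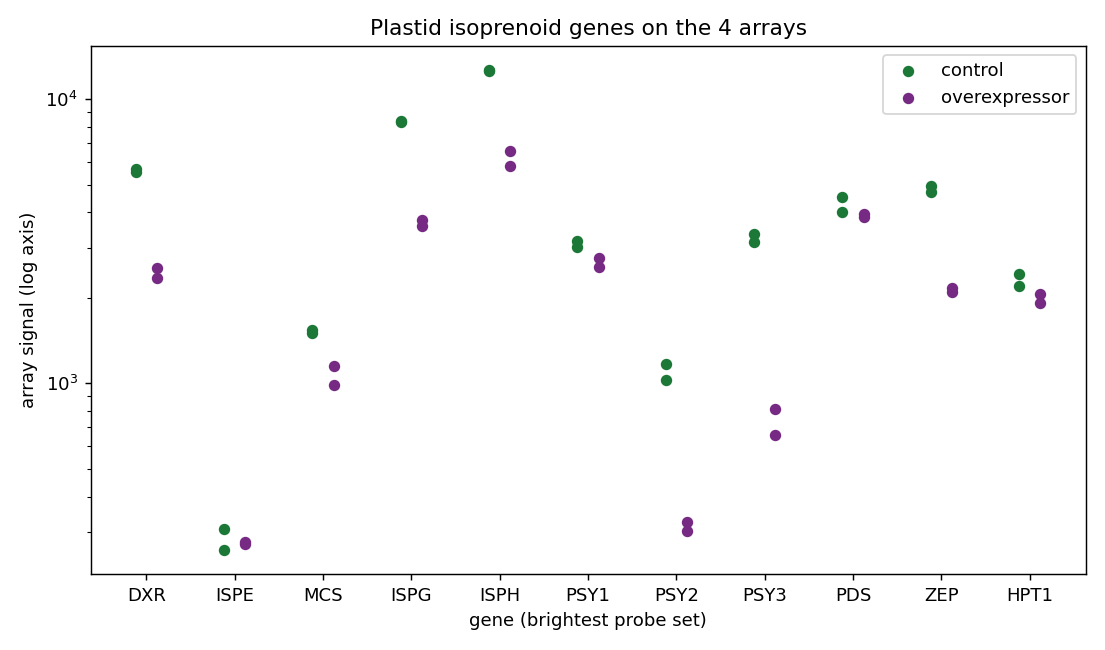
Array signal on a log axis for the brightest probe set of 11 plastid isoprenoid genes, with a point for each array. The overexpressor points of DXR, MCS, ISPG, ISPH, PSY2, PSY3 and ZEP lie clearly below the control points, while those of ISPE lie within the control range.

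GLK2, which with GLK1 is known in rice and Arabidopsis as an activator of chlorophyll and light-harvesting genes, fell as well. Its bright probe set read 4633.2 and 4556.4 in the control pair, against 2967.9 and 2881.3 on the overexpressor arrays (-0.65, SE 0.08, limma adjusted p = 0.00245), and it kept the call in each of 15 alternatives. All 4 GLK2 probe sets had negative differences, and 2 passed. The dimmer of these 2 read 123.7 and 96.4 against 35.2 and 28.6, below background (43.4 and 39.2) on the overexpressor arrays. Its name marks it as one that may also hybridise to other transcripts. A further dim GLK2 probe set was below background on overexpressor replicate 1 (34.8). GLK1 read 1836.5 and 1910.7 against 1614.4 and 1344.0 and did not pass (-0.35, limma adjusted p = 0.0692). It passed as lower after median centring (-0.45, limma adjusted p = 0.0302). The GLK1 difference was -0.03 after spike scaling and -0.48 without overexpressor replicate 1. V2, a guanylate kinase gene of plastids and mitochondria whose mutants are pale, rose by 0.56 on the log2 scale (limma adjusted p = 0.0151), and it lost the call without either control array and without a trend of the spread.

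Transcripts of other tissues and cell types also differed between the groups, and their counts stand beside 15.2% of all tested genes that fell and 18.8% that rose. Of 8 tested anther genes, 5 fell and 3 missed the limma threshold, and the signal summed over 9 anther genes was 14938.8 and 15557.9 in the control pair, against 1642.2 and 1235.3 on the overexpressor arrays. The anther gene RTS, with the lowest change of all tested probe sets (-8.55), was within background on both overexpressor arrays (10.8 and 3.8). MSP1 of the same list went the other way, with 279.9 and 312.9 against 351.7 and 418.2 (0.37, limma adjusted p = 0.152). Of 5 tested genes of the root and stem list (CESA4, CESA7, CESA9, BC1 and LSI1) 5 were lower. The sum over 6 was 13720.4 and 13793.3 against 9357.2 and 8584.6. CESA4 (4460.5 and 4233.3) and CESA7 (4724.7 and 4996.1) were bright in the control leaf pair. Whether transcripts of this list came from root or stem was not tested. Of 9 tested genes of dividing cells and meristem 7 were higher, 1 was lower and 1 did not pass. The higher ones were PCNA, MCM2, MCM3, MCM5, CYCD3-1, CDKB2-1 and CYCB2-1. The lower one was the meristem gene OSH1 (-0.44, limma adjusted p = 0.0212). The sums over the 9 genes were 4668.9 and 4927.1 against 6345.3 and 8410.7. Of 6 tested leaf genes, 4 fell and 2 missed the limma threshold. Those that fell were rcaA1 (log2 difference -1.10), PSAG1 (-1.26), PSB28 (-1.02) and PPDKB (-1.27). The sums over 7 leaf genes were 87269.9 and 90326.0 against 63810.4 and 60159.4. These sums moved with the group, and their part in the differences of the chlorophyll genes was not tested.

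The direction of each of the 6 genes was the same in all 60 values obtained under 10 alternatives for each gene. Because the groups of each gene did not overlap, leaving out 1 array or changing the pseudocount could not turn its direction. The count is therefore not a test, and only the ranges are informative for those alternatives. PORA ranged from -1.39 to -0.97, GluTR from -1.19 to -0.78, CHLH from -0.74 to -0.32 and LYL1 from -0.61 to -0.19 on the log2 scale. RCCR1 ranged from 0.51 to 1.16 and OSL2 from 0.46 to 0.91. The ends nearest to 0 of the synthesis genes come from spike scaling, and those of RCCR1 and OSL2 from leaving out overexpressor replicate 1.

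**Figure D5:**
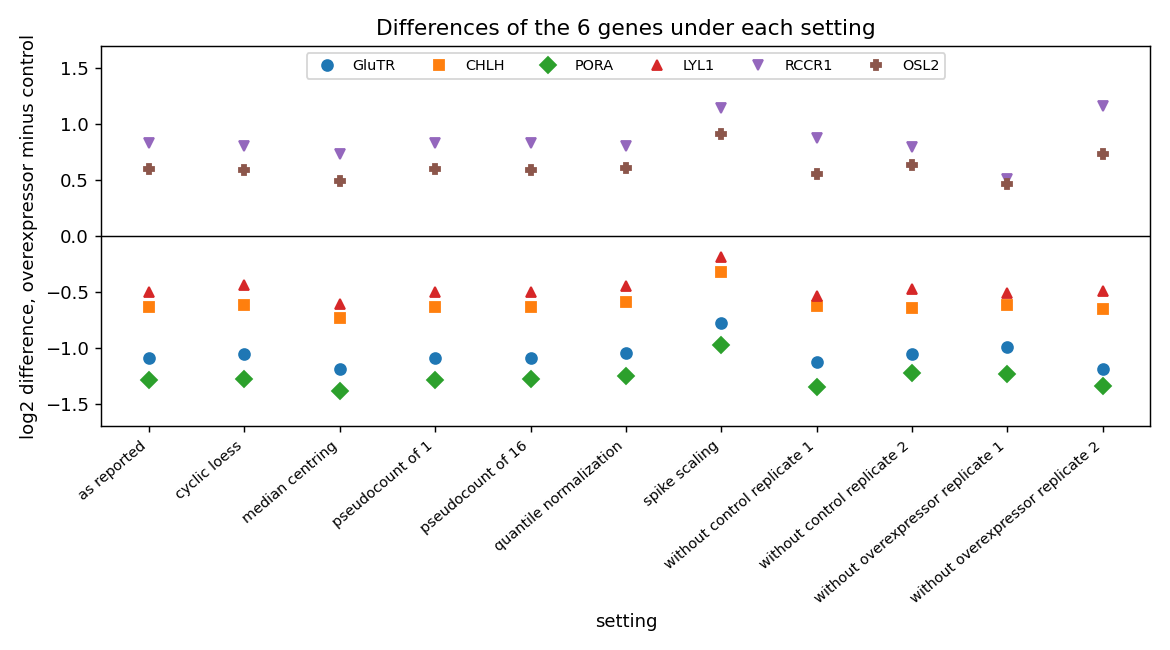
Log2 difference, overexpressor minus control, of the 6 genes as reported and under 10 alternatives, with a symbol for each gene. Under each setting PORA, GluTR, CHLH and LYL1 lie below 0 and RCCR1 and OSL2 above it.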

How the data were processed

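The members and gene lists were chosen with earlier results of these data known. Per the labels' protocols, about 10 µg of total leaf RNA per sample was made into biotin-labelled cRNA. The deposited table holds an intensity per probe set on a linear scale, which the authors had brought to a common level (mean of 500.1 after trimming 2% at each end). The software that made it is not named in the sources used here. A pseudocount of 3.6 (10th percentile) was added before log2, which understates changes of dim transcripts. The 123 control probe sets and those below the median signal were left out. The remaining 28629 were fitted with limma 3.58.1 in R 4.3.3 (eBayes with trend, two-sided, Benjamini-Hochberg, threshold 0.05). The procedure was also run on simulated data with independent arrays, which cannot show how it performs where replicates may be technical. Lists use the brightest probe set of a gene. Of 22436 probe sets with 1 gene in the platform annotation and 95 with several, only the former were named, through RefSeq symbols and synonyms of assembly ASM3414082v1. A further 34850 are not listed in it. Altogether 10 list entries were dropped because their synonyms named another gene, and entries without a matching symbol are missing. Background is the 95th percentile of 69 control probe sets for transcripts not from rice (30.0 to 43.4). The genes planned to be named were the 6 members, OsRR6 and each measured gene of the chlorophyll, haem, breakdown and GABA lists. The plan added up to 4 past genes of other lists (otherwise the 2 brightest) and the 3 genes nearest to each member in profile. For the anther list not all of these are printed. Further genes were named after their values were seen. Only 2 arrays per group limit the precision, and an exact permutation test could not go below p = 0.33. Alternatives covered pseudocount, normalization, filter, spread model, replicate block, probe set type and each array left out.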

Additional observations from a re-analysis of the deposited data

How the results depend on the processing

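As reported, 4410 probe sets were higher and 3760 lower (28.5% of those tested). Median centring gave 3030 and 4631, spike scaling 11533 and 2115, and a fit without a trend of the spread 2580 and 2461, and 635 and 987 reached 2-fold in each of the 4 pairs. With 1 array left out they ranged from 1390 to 6138 higher and from 1558 to 5297 lower, with the lone array assumed to vary like the other group. Of the 9 other synthesis genes, 4 lower as reported, 1 was lower without a trend, after spike scaling and without probe sets marked for several transcripts, and 1 to 4 were lower with 1 array left out. The count higher, 0 as reported (limma), was 1 after quantile normalization, cyclic loess and the filter at the 75th percentile, 4 after spike scaling, and 0 to 4 with 1 array left out (4 without overexpressor replicate 1). The isoprenoid counts stayed between 6 and 8 lower and 0 higher in limma. With the replicate number as a block 4236 were higher and 3695 lower, with 4 synthesis and 7 isoprenoid genes lower. Same-numbered arrays did not deviate together (correlation -0.02). Except where shown by fewer arrays or probe sets, the cause was not tested. Low signal limits CHLI and the dim CHLH probe set, though both read above background on all arrays.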

Other observations

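Of 5 tested genes of light signalling 1 was higher, 1 was lower and 3 did not pass in limma, close to the 18.8% of all tested genes that were higher and the 15.2% that were lower. PHYA, the phytochrome of far-red light, rose from 2374.7 and 2420.7 to 3363.4 and 3268.7 (log2 change 0.47, SE 0.08, limma adjusted p = 0.00852), and a second PHYA probe set read 683.8 and 660.4 against 1108.2 and 1055.7. The blue-light receptor gene PHOT2 fell from 5973.4 and 5689.9 to 3064.4 and 3775.2 (-0.78, SE 0.11, limma adjusted p = 0.00485). The PHYA call was lost without either control array and without a trend (limma adjusted p from 0.0539 to 0.104).

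Of the other senescence genes, NAC2 did not pass (-0.14, limma adjusted p = 0.646) and SAG12 was too dim to test.

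The genes with a symbol whose centred log2 values over the 4 arrays lay nearest to those of each member, by Euclidean distance, were looked up as a description. For PORA they were AOS (distance 0.06), rcaA1 and BC1L9 (0.09 each), and AOS read 549.9 and 570.4 on the control arrays against 223.5 and 232.2. For GluTR they were OC-VIII (0.05), FKI and ARF9 (0.07 each). For CHLH they were WRKY51 (0.03), XRT5 and GRXS5 (0.04 each). For LYL1 they were CML1 (0.03), LOX2 and ZIP5 (0.04 each). For RCCR1 they were CRK10 (0.07), CH16 and BGLU6 (0.08 each). For OSL2 they were SGT1 (0.01), PP2C75 (0.03) and GSTU6 (0.04), and SGT1 read 4629.1 and 4902.7 on the control arrays against 7850.5 and 6489.5.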
